A study of Mus musculus with 8 samples.

Results

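The 52 genes described here encode proteins of the extracellular matrix and the enzymes that make, cross-link and cut it. They were taken by patterns of gene names from the 5457 genes of a deposited expression table of cultured mouse muscle cells. The patterns were chosen with earlier results of these data known, and the table itself holds only genes selected on measured values. The name patterns covered collagens, laminins, nidogens, Frem proteins, fibulins, fibrillins, latent TGF-beta binding proteins, Emilin and Mfap proteins, lysyl oxidases, Adamts and Mmp proteases, Timp inhibitors, hyaluronan synthases and single matricellular proteins. Of the 52, 51 encode matrix proteins or matrix enzymes. The remaining gene, Col4a3bp, matched the collagen pattern but encodes a ceramide transfer protein of the cytosol, and is kept apart from the groups below. Hspg2 (perlecan) and Postn (periostin), also searched for, were not analysed here.

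Cells came from the digested hind limb muscle of adult C57BL/6 mice and were sorted for the red fluorescent protein tdTomato, then cultured on Matrigel. In Pax7-CreERT2/+;R26-tdTO+ mice, Cre recombinase is expressed from Pax7, the gene of the transcription factor that marks muscle satellite cells. In Tw2-CreERT2/+;R26-tdTO+ mice it is expressed from Tw2 (Twist2), the gene of a helix-loop-helix factor of mesenchymal cells. In both, tamoxifen (3 treatments on alternate days, 10 days ahead of tissue collection) switches tdTomato on, so a label marks descent from a cell that used the driver gene, not its use in culture. The 8 libraries form 4 groups of 2, called Pax7_GM, Pax7_48, Tw2_GM and Tw2_48 after their titles. The labels describe a growth medium (Ham's F10 with 20% fetal bovine serum) and a medium for differentiation (high-glucose DMEM with 2% horse serum and bFGF) for all samples alike. They give 48 in hours for the Tw2 titles only, do not say which medium the cultures titled 48 were in, and do not say whether the 2 libraries of a group came from separate mice or cultures, so the p-values measure the spread between these libraries, which may be technical.

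Around each muscle fibre lies a basement membrane, a sheet of laminin and type IV collagen networks joined by nidogens, and outside it lies interstitial matrix built on fibrillar collagens and elastic microfibrils. Satellite cells sit under the basement membrane, and muscle precursors make part of the matrix themselves. Matricellular proteins such as osteopontin (Spp1) and tenascin-C (Tnc) bind matrix and cell-surface receptors without bearing load, and Adamts and Mmp proteases, held in check by Timps, remodel the matrix as cells migrate and fuse.

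The deposited values are group means of CPM (counts scaled to the total of each library), which were resolved into the CPM of the 2 libraries of each group. Implied library sizes ran from 5.18 to 13.7 M reads, and 3 reads, the most that a count of 0 allows, come to 0.218 to 0.579 CPM (counting error only). Within a group the library with more reads is the deeper one and the other the shallower, and paired values below give the deeper first. Over all genes the Pax7_GM libraries differed most (median absolute log2 ratio 0.33, against 0.11 to 0.12 in the other groups). Every listed gene differs at least 2-fold, by the authors' means plus 1, between Tw2_GM and another group, so all counts are counts among genes selected for such a difference. Every solved gene also has 10 or more CPM in at least 4 of the 8 libraries. A member under 10 CPM in all libraries of 1 culture is thus listed only through the other, which sets the direction of its change. Among such members are Mfap4, Adamtsl2, Fbln5 and Col5a3 (low in GM) and Fbln1, Loxl3, Col8a1 and Has2 (low at 48). Pax7 mRNA was at 117 and 112 CPM in Pax7_GM and 113 and 109 in Tw2_GM, so it did not separate the lineages in GM. At 48 it was at 9.58 and 9.95 CPM in Pax7_48 and 13.0 and 12.6 in Tw2_48. There it was higher in the Tw2 lineage (limma log2 difference 0.35, adjusted p = 0.0303). All 10 markers of fusing myocytes analysed (of a list of 14) were higher at 48 in both lineages, and their summed level in GM was 1739 to 2027 CPM in Pax7_GM but 319 to 393 CPM in Tw2_GM. Twist2 itself was not analysed here.

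The summed share of reads in the 51 matrix genes was about 3 to 4 times larger in GM than at 48. It was 1.52% and 1.71% in the Pax7_GM libraries, 2.27% and 2.38% in Tw2_GM, 0.507% and 0.490% in Pax7_48, and 0.609% and 0.568% in Tw2_48. No library titled 48 reached the GM range in either lineage. The summed CPM was 3.24-fold higher in Pax7_GM than in Pax7_48 and 3.95-fold higher in Tw2_GM than in Tw2_48, while Tw2 was 1.44-fold above Pax7 in GM and 1.18-fold above it at 48. These sums were not tested, and the lineage ratios are for the deposited scaling. With size factors of the listed genes the median lineage difference of the 52 members was -0.64 in GM and -0.76 at 48. With the deposited values it was 0.24 and -0.11. In bulk cultures, fewer cells making a matrix mRNA and less of that mRNA per cell cannot be told apart.

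**Figure D1:**
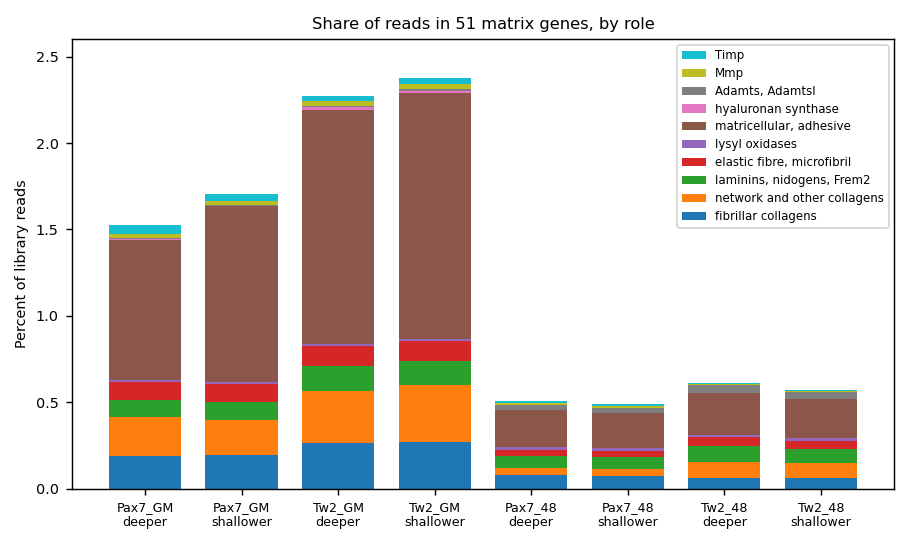
Percent of library reads (y axis) in 51 matrix genes for each of the 8 libraries (x axis), stacked by role of the gene. The 4 GM libraries stand at 1.52% to 2.38% and the 4 libraries titled 48 at 0.490% to 0.609%, and matricellular and adhesive glycoproteins form the largest block in every library.

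Most matrix genes fell from GM to 48, and most of those fell in both lineages. Of the 52 genes, 32 were lower and 16 higher in Pax7_48 than in Pax7_GM, where 40.5% and 38.8% of all 5452 tested genes were lower and higher (limma on log2(CPM + 1), adjusted p under 0.05). In Tw2_48 against Tw2_GM, 31 were lower and 17 higher, against 48.9% and 35.3% of all genes. The median log2 difference of the members was -1.60 in the Pax7 lineage, where the median over all genes was 0.01, and -1.46 in the Tw2 lineage, where it was -0.49. The lineage comparisons, which share no library with each other, divided the members more evenly. In GM, 21 were higher and 17 lower in Tw2 than in Pax7 (48.7% and 26% of all genes), and at 48 16 were higher and 15 lower (43.3% and 22.1% of all genes). The median member difference was 0.24 in GM and -0.11 at 48, where all genes stood at 0.34 and 0.27. With only 2 libraries a group, lack of overlap was common. In GM 26 members had both Tw2 libraries above both Pax7 libraries and 23 below (55.4% and 32.3% of all genes), and at 48 it was 20 and 21 (55.4% and 34.2%). From GM to 48, 16 members lay above without overlap and 34 below in Pax7 (42% and 43% of all genes), and 18 and 33 in Tw2 (38.8% and 56.2%).

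The lineage calls depended on how libraries were scaled, and the culture calls hardly did. Scaling the listed genes by size factors moved the all-gene median of the lineage difference from 0.34 to -0.50 in GM and from 0.27 to -0.36 at 48, and split the members into 4 higher and 30 lower in GM (all genes 25.6% and 53.9%) and 9 higher and 30 lower at 48 (17.3% and 48.3%). Quantile normalization gave 16 higher and 18 lower members in GM (all genes 36.2% and 40.5%), and removal of the trend with GC content and length gave 31 and 11 (63.0% and 14.8%). All-gene lineage medians followed GC content in both cultures. In GM they went from 1.83 in the fifth of genes poorest in GC to -0.37 in the richest, and at 48 from 1.17 to -0.27. The members higher in Tw2_GM had a median transcript GC content of 50.4% against 54.7% for those lower. At 48 these medians were 52.7% and 53.5%. Calls that held with the deposited values, size factors, quantile normalization and the trend removed numbered 4 higher and 7 lower in GM, and 9 higher and 12 lower at 48. For all genes those shares were 23.2% and 9.7% in GM, and 16.3% and 9.11% at 48. The same 4 treatments left 15 members higher and 31 lower at 48 in the Pax7 lineage (35.8% and 36.4% of all genes), and 15 higher and 29 lower in the Tw2 lineage (31.4% and 40.6%).

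**Figure D2:**
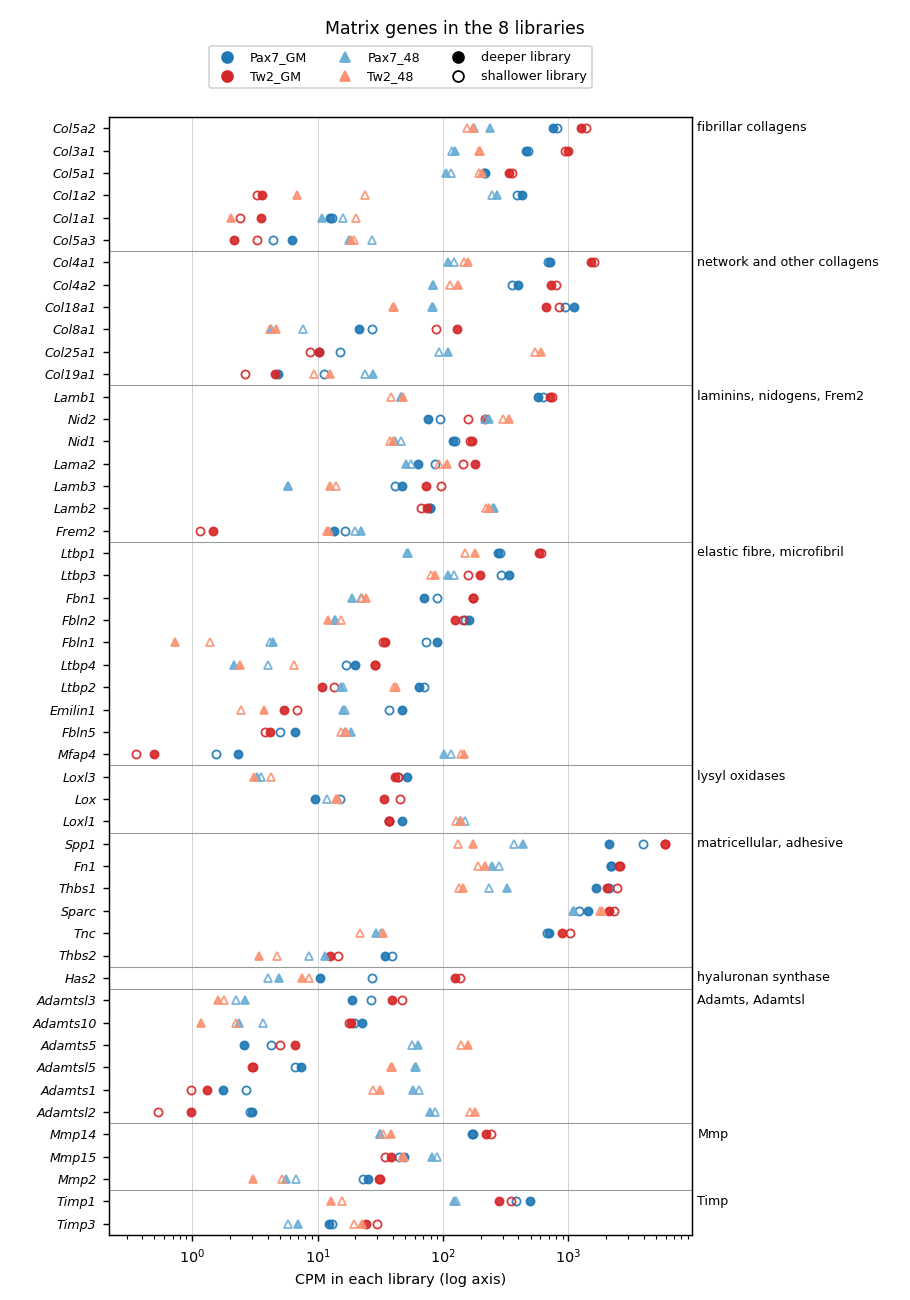
CPM (x axis, log scale) of 50 of the 51 matrix genes (y axis, by role) in each library; colour and shape give the group, and filled and open symbols the deeper and the shallower library. Most collagen, microfibril and matricellular genes lie further left in the triangles (titled 48) than in the circles (GM), while Mfap4, Adamtsl2, Adamts1, Adamts5 and Col25a1 lie further right.

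Some genes did not follow the same course in both lineages. For 17 of the 52 the change from GM to 48 differed between the lineages, 7 with a change more positive in Tw2 and 10 more negative, against 9.72% and 9.01% of all genes. Leaving out 1 library at a time gave 6 to 12 more positive and 3 to 17 more negative. The negative count was 16 without the deeper Pax7_GM library and 17 without the shallower (all genes 18.4% and 40.2%), 5 or 3 without the deeper or shallower Tw2_GM library, 3 or 6 without those of Pax7_48, and 3 or 4 without those of Tw2_48 (all genes 2.31% to 3.25% over these 6 fits). The positive count was 12 without the shallower Pax7_GM library (all genes 17.6%). With the GC and length trend removed, 19 were more negative (all genes 21.3%). Adamtsl2, Col25a1, Col8a1, Frem2, Ltbp2, Spp1 and Timp1 were called in each of the 4 treatments of the values and in each of the 8 fits without a library. The 4 largest differences belonged to Ltbp2, Col25a1, Timp1 and Spp1.

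Ltbp2, a microfibril-associated member of the latent TGF-beta binding protein family, moved in opposite directions. It was at 64.9 and 70.2 CPM in Pax7_GM, 10.8 and 13.6 in Tw2_GM, 15.3 and 16.1 in Pax7_48 and 42.1 and 40.9 in Tw2_48. Both Tw2_GM libraries lay below both Pax7_GM libraries, and at 48 the order was turned round, with no overlap in either. From GM to 48 Ltbp2 fell 4.30-fold in the Pax7 lineage (log2 difference -2.04, SE 0.14, adjusted p = 3.41e-06) and rose 3.39-fold in the Tw2 lineage (1.69, SE 0.14, adjusted p = 7.86e-06). The difference of the changes was 3.73 (SE 0.20, adjusted p = 6.95e-05), the largest of any member. An antisense RNA gene, D030025P21Rik, shares 9.34% of the exon bases of Ltbp2, and strand use in counting is not stated, so its reads could be included. Ltbp2 was the one member called in opposite directions in the 2 culture comparisons.

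Col25a1 encodes a membrane-bound collagen made by muscle fibres and needed for motor innervation of muscle. It was at 10.3 and 15.2 CPM in Pax7_GM, 10.4 and 8.68 in Tw2_GM, 111 and 93.5 in Pax7_48 and 605 and 539 in Tw2_48. The GM groups overlapped, and all 4 libraries titled 48 were above all GM libraries, with Tw2_48 above Pax7_48. The rise was 7.99-fold in the Pax7 lineage (log2 difference 2.92, SE 0.20, adjusted p = 2.79e-06) and 60.1-fold in the Tw2 lineage (5.77, SE 0.20, adjusted p = 4.66e-08). The changes differed by 2.85 (SE 0.28, adjusted p = 5.46e-04). At 48 it was the member furthest above Pax7 in the Tw2 lineage, at 5.60-fold (log2 difference 2.48, SE 0.20, adjusted p = 1.23e-04).

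Timp1, a secreted inhibitor of matrix metalloproteinases, fell in both lineages and further in Tw2. It was at 498 and 381 CPM in Pax7_GM, 281 and 347 in Tw2_GM, 123 and 127 in Pax7_48 and 12.8 and 15.8 in Tw2_48. Every library titled 48 was below every GM library, and the Tw2_48 libraries were far below those of Pax7_48. The fall was 3.51-fold in the Pax7 lineage (log2 difference -1.79, SE 0.18, adjusted p = 3.14e-05) and 22.0-fold in Tw2 (-4.36, SE 0.18, adjusted p = 1.18e-07), and the changes differed by -2.57 (SE 0.26, adjusted p = 5.86e-04). At 48 Timp1 was 8.77-fold lower in Tw2 than in Pax7 (log2 difference -3.05, SE 0.18, adjusted p = 4.26e-05). In GM its lineage difference was -0.48 (adjusted p = 0.0417) with the values as deposited but 0.78 with the GC and length trend removed. Timp1 lies on the X chromosome, and the X-linked RNA Xist, looked at after its values were seen, was at 45.9 and 175 CPM in Pax7_GM, 1188 and 659 in Tw2_GM, 70.9 and 66.6 in Pax7_48, and 351 and 272 in Tw2_48. The sex of the animals is not stated, and the part of Xist or sex in these values was not tested.

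Spp1 encodes osteopontin, a secreted glycoprotein that binds integrins and CD44 and is made by activated muscle precursors. Among the matrix genes it had the highest level per kilobase of transcript in GM, at 2017 CPM per kb in Pax7_GM and 3922 in Tw2_GM. It was at 2111 and 3967 CPM in Pax7_GM, 5927 and 5893 in Tw2_GM, 437 and 369 in Pax7_48 and 173 and 132 in Tw2_48. The Tw2 libraries were the higher ones in GM and the lower ones at 48, without overlap. It fell 7.54-fold in Pax7 (log2 difference -2.85, SE 0.28, adjusted p = 2.46e-05) and 38.7-fold in Tw2 (-5.28, SE 0.28, adjusted p = 4.54e-07), and the changes differed by -2.43 (SE 0.40, adjusted p = 0.00519). The lineage difference at 48 was -1.40 (SE 0.28, adjusted p = 0.00366). In GM it was 1.03 (adjusted p = 0.00987), and 0.16 with size factors, where it was not called. Leaving out 1 Pax7_GM library moved it to 0.58 or 1.49, with the call kept. An overlapping gene model on the same strand, Gm42793, shares 18.8% of Spp1 exon bases.

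**Figure D3:**
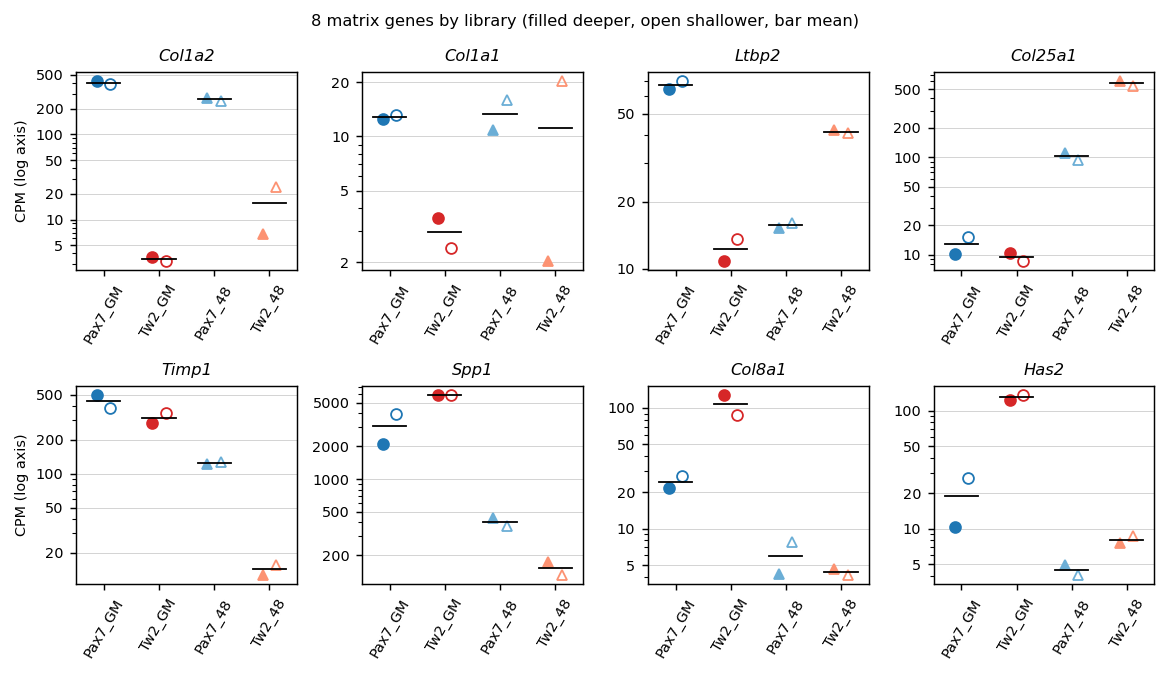
CPM (y axis, log scale) of 8 matrix genes in the 4 groups (x axis); each point is 1 library, filled for the deeper and open for the shallower, and the bar is the mean of both. Ltbp2 is high in Pax7_GM and Tw2_48, Col25a1 rises at 48 to 605 and 539 CPM in Tw2_48, Timp1 and Spp1 are lowest in Tw2_48, and the Col1a1 points of Tw2_48 lie far apart.

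The sequences upstream of these 4 genes are shown because they are the members whose change differed most between the lineages. They are from the RefSeq promoter table on GRCm38.p6, upstream of the RefSeq start and trimmed to leave out GENCODE exons of the gene, and are written 5′ to 3′ on the gene's strand. Capitals mark CCAAT or its reverse complement ATTGG, the box bound by NF-Y. The Ltbp2 stretch is chr12:84876533-84876741 (minus strand), that of Col25a1 is chr3:130180595-130180844, that of Timp1 is chrX:20869916-20870165 and that of Spp1 is chr5:104434861-104435110 (all plus strand). The RefSeq start of Col25a1 lies inside its longer GENCODE gene model, which begins upstream at 130131501.
Ltbp2: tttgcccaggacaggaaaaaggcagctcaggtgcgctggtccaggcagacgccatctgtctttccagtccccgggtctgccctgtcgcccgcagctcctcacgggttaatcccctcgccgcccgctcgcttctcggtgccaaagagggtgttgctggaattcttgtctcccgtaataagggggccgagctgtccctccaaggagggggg
Col25a1: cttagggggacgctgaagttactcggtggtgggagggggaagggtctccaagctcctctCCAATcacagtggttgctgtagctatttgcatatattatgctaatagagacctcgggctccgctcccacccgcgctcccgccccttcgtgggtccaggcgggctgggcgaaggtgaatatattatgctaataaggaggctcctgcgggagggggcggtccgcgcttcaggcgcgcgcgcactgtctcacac
Timp1: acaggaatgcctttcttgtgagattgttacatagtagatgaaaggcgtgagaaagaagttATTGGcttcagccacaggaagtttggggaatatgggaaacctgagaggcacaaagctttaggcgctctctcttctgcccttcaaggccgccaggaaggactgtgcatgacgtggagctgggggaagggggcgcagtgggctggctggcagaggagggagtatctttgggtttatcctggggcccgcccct
Spp1: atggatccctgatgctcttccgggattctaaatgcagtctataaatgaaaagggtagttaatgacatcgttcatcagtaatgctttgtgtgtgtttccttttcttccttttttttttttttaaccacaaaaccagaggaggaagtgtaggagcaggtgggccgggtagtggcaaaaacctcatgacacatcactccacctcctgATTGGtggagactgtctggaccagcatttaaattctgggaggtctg
In these letters the box stands 191 bases upstream of the annotated start in Col25a1, 190 in Timp1 and 46 in Spp1, and does not occur in the Ltbp2 window. Of the 52 members 37 had an entry in the table. The 250 bases upstream held CCAAT on either strand in 16 of the 37 (43.2%), against 33.8% of all 32851 promoters. TATAAA was in 6 of 37 (16.2%, against 12.4%), the E-box CAGCTG in 7 (18.9%, against 13.0%), and the AP-1 motif TGANTCA in 0 (against 6.75%). These are matches of letters in these windows and show nothing of binding.

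Spp1 and the other matricellular and adhesive glycoproteins made up the largest share of matrix reads, and 5 of these 6 genes fell in each lineage (40.5% and 48.9% of all genes fell in Pax7 and Tw2). Tnc, which is expressed in regenerating muscle and in tendon, had the largest fall in the Pax7 lineage. It was at 698 and 672 CPM in Pax7_GM, 890.1 and 1024 in Tw2_GM, 29.0 and 31.9 in Pax7_48 and 33.0 and 21.7 in Tw2_48. The GM and 48 libraries were separated by more than 20-fold in either lineage. Tnc was 22.5-fold lower in Pax7_48 than in Pax7_GM (log2 difference -4.45, SE 0.20, adjusted p = 3.36e-07) and 35.0-fold lower in Tw2_48 than in Tw2_GM (-5.10, SE 0.20, adjusted p = 7.64e-08). Fn1 (fibronectin, which cells assemble into fibrils through integrins) fell by 8.31- and 12.6-fold (log2 differences -3.05 and -3.65). Thbs1 (thrombospondin 1, an activator of latent TGF-beta) fell by 6.78- and 16.0-fold.

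Sparc, a collagen-binding glycoprotein, was the exception, at 1425 and 1211 CPM in Pax7_GM, 2125 and 2306 in Tw2_GM, 1115 and 1089 in Pax7_48 and 1866 and 1801 in Tw2_48. Its culture differences were -0.25 in Pax7 (adjusted p = 0.115) and -0.27 in Tw2 (adjusted p = 0.0892), neither called with the deposited values, although quantile normalization gave -0.98 and -1.20. It had the highest level per kilobase of any matrix gene at 48, 479 CPM per kb in Pax7_48 and 797 in Tw2_48. Thbs2 (thrombospondin 2), with culture differences of -1.80 in Pax7 and -1.53 in Tw2, was at 34.5 and 39.5 CPM in Pax7_GM, 12.7 and 14.6 in Tw2_GM, 11.6 and 8.51 in Pax7_48 and 3.42 and 4.79 in Tw2_48. Both Tw2 libraries were below both Pax7 libraries in each culture, 2.72-fold in GM (log2 difference -1.38, SE 0.19, adjusted p = 3.51e-04) and 2.44-fold at 48 (-1.11, SE 0.19, adjusted p = 0.00218), and with size factors the GM value was -2.19.

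The fibrillar collagens, which form the interstitial fibres, held the largest lineage difference of all members. Col1a2, the alpha 2 chain of type I collagen, was at 424 and 387 CPM in Pax7_GM, 3.61 and 3.28 in Tw2_GM, 270.2 and 246 in Pax7_48 and 6.84 and 24.1 in Tw2_48. Every Tw2 library was at least 10-fold below every Pax7 library in either culture. The GM groups differed 118-fold (log2 difference -6.51, SE 0.44, adjusted p = 1.91e-05) and those at 48 16.7-fold (-4.21, SE 0.44, adjusted p = 3.38e-04). In Tw2 the 48 libraries were above the GM libraries (1.66, SE 0.44, adjusted p = 0.00699), but they stood far apart from each other. Over the 8 fits without a library this rise ran from 0.82 to 2.50. The difference of changes of 2.31 (adjusted p = 0.0359) was not called in 4 of the 8 fits without a library, those without a Tw2_GM or a Pax7_48 library.

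Col1a1, the alpha 1 chain that pairs with Col1a2 in type I collagen, was far lower in the Pax7 lineage than its partner. It was at 12.5 and 13.1 CPM in Pax7_GM, 3.53 and 2.39 in Tw2_GM, 10.8 and 15.8 in Pax7_48 and 2.04 and 20.3 in Tw2_48. The Tw2_48 libraries differed by 2.81 on the log2 scale, the widest gap between paired libraries of any matrix gene. In the fit of all 4 groups Col1a1 was called in no comparison. Its GM lineage difference there was -1.81 (SE 0.73, adjusted p = 0.0506). That fit takes the spread from all 8 libraries, so this SE includes the wide Tw2_48 pair. In the limma fit on the 2 GM groups alone the difference of -1.81 had SE 0.21 and adjusted p = 0.00298. The 4-group fit passed the threshold with size factors (-2.48), quantile normalization (-1.77) and a pseudocount of 5 (-1.16). With the GC and length trend removed it did not (-1.28). Without the deeper Tw2_48 library its Tw2 culture difference was 2.44 (adjusted p = 1.70e-04), and without the shallower one it was -0.37 (adjusted p = 0.257) and the lineage difference at 48 was -2.21 (adjusted p = 0.00359). So the direction for Col1a1 in Tw2 rested on a single library. Per kilobase, Col1a2 stood 32.7 to 37.7 times above Col1a1 in the Pax7_GM libraries, 17.2 to 27.7 times in Pax7_48, and 1.13 to 3.72 times in the 4 Tw2 libraries. Prrx1, a fibroblast and mesenchymal marker, was also lower in Tw2 in both cultures: it was at 29.5 and 39.7 CPM in Pax7_GM, 4.68 and 2.39 in Tw2_GM, 25.4 and 22.3 in Pax7_48 and 1.31 and 1.49 in Tw2_48. Its lineage differences were -3.01 in GM and -3.37 at 48 (adjusted p = 5.10e-05 and 1.07e-04), but from GM to 48 in Tw2 it fell (-0.87, adjusted p = 0.0102) where Col1a2 rose. Of the 12 fibroblast markers, 3 were analysed. Tcf7l2 was higher in Tw2 in GM (0.72, adjusted p = 0.00341) and not called at 48 (0.07), and Gsn was lower in GM (-1.12, adjusted p = 7.86e-04) and not called at 48 (-0.28). The summed level of the 3, mostly Gsn, was 221 to 263 CPM in Pax7_GM, 117 to 130 in Tw2_GM, 393 to 438 in Pax7_48 and 302 to 350 in Tw2_48. The part of such cells in the collagen values was not tested.

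The other fibrillar collagens did not share the Col1a2 pattern. Col3a1 (type III, abundant in the tissue between fibres) fell 3.86- and 4.93-fold, and Col5a2 (type V, which sets fibril diameter) fell 3.81- and 8.04-fold. Col5a1 fell less, at log2 differences of -0.94 and -0.79. Col5a3, the third type V chain, rose 4.21-fold in Pax7 (log2 difference 1.88, SE 0.24, adjusted p = 1.23e-04) and 7.02-fold in Tw2 (2.45, SE 0.24, adjusted p = 1.97e-05) from low levels of 2.14 to 6.23 CPM. Col3a1, Col5a1 and Col5a2 were higher in Tw2_GM than Pax7_GM with the deposited values (log2 differences of 1.04, 0.69 and 0.75), but with size factors they were at 0.16, -0.18 and -0.12 and not called.

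Of the 6 network-forming and other collagens, 4 fell and 2 rose in each lineage (all genes 40.5% and 38.8% in Pax7, 48.9% and 35.3% in Tw2). Col4a1 and Col4a2, the 2 chains of the main type IV network, start 22 bases into each other on opposite strands of chromosome 8 (Col4a2 at 11312805, Col4a1 at 11312826). Col4a1 was at 719 and 693 CPM in Pax7_GM, 1512 and 1591 in Tw2_GM, 109 and 124 in Pax7_48 and 160.0 and 148 in Tw2_48. It fell 6.07- and 10.1-fold, and Col4a2 fell 4.49- and 6.20-fold. The Col4a1 level per kilobase was 1.76 to 2.02 times that of Col4a2 in the 4 GM libraries and 1.18 to 1.43 times at 48, without overlap between cultures. The deposited GM values of Col4a1 put Tw2 2.20-fold above Pax7 (log2 difference 1.13, SE 0.13, adjusted p = 1.63e-04), and size factors gave 0.26 with no call.

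Col18a1, whose C-terminal fragment is endostatin, was at 1103 and 937 CPM in Pax7_GM, 660.4 and 841 in Tw2_GM, 81.3 and 83.5 in Pax7_48 and 40.3 and 40.5 in Tw2_48. It fell 12.4-fold in Pax7 (log2 difference -3.61, SE 0.16, adjusted p = 3.29e-07) and 18.6-fold in Tw2 (-4.17, SE 0.16, adjusted p = 6.93e-08). Col8a1, a short-chain network collagen, was at 21.5 and 27.2 CPM in Pax7_GM, 128 and 87.6 in Tw2_GM, 4.23 and 7.73 in Pax7_48 and 4.66 and 4.15 in Tw2_48. It was 4.43-fold higher in Tw2 than in Pax7 in GM (log2 difference 2.09, SE 0.27, adjusted p = 2.54e-04; 1.23 with size factors), while at 48 the lineages overlapped. Its fall was 4.08-fold in Pax7 and 24.5-fold in Tw2 (-4.31, SE 0.27, adjusted p = 1.29e-06), and the changes differed by -2.41 (adjusted p = 0.00476). Col19a1, a collagen of the fibril-associated class, was at 4.88 and 11.2 CPM in Pax7_GM, 4.60 and 2.66 in Tw2_GM, 27.8 and 23.8 in Pax7_48 and 12.6 and 9.36 in Tw2_48. It rose 3.21- and 3.03-fold, and stood 2.35-fold lower in Tw2 than in Pax7 at 48 (log2 difference -1.17, SE 0.34, adjusted p = 0.0174). That call was lost without the deeper or the shallower Pax7_48 library or the shallower Tw2_48 library, at -1.06, -1.28 and -0.98.

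Of the 8 basement membrane glycoproteins, 4 fell and 4 rose in each lineage, shares near those of all genes (40.5% and 38.8% in Pax7, 48.9% and 35.3% in Tw2). Lamb1, the laminin beta 1 chain, was at 579 and 630.3 CPM in Pax7_GM, 719.6 and 742 in Tw2_GM, 46.3 and 46.7 in Pax7_48 and 48.2 and 38.4 in Tw2_48. It fell 13.0-fold in Pax7 (log2 difference -3.67, SE 0.14, adjusted p = 2.45e-07) and 16.9-fold in Tw2 (-4.05, SE 0.14, adjusted p = 5.43e-08). Lamb2, the beta 2 chain found at synapses of muscle fibres, went the other way, rising 3.18- and 3.21-fold from 66.3 to 79.1 CPM in the GM libraries to 222 to 254 CPM at 48. Lamb3 fell 7.67- and 6.43-fold.

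Lama2, the alpha chain of the main laminin of mature muscle, changed little, by -0.46 in Pax7 and -0.68 in Tw2 (adjusted p = 0.0491 and 0.00823). With size factors neither change was called (-0.22 and -0.22), and the Pax7 call was lost in 7 of the 8 fits without a library. The nidogens, which link laminin to type IV collagen, also parted. Nid1 fell 2.82- and 4.28-fold. Nid2 was at 75.7 and 94.1 CPM in Pax7_GM, 217 and 158 in Tw2_GM, 231 and 218 in Pax7_48 and 335 and 299 in Tw2_48. It rose 2.64-fold in Pax7 (log2 difference 1.40, SE 0.19, adjusted p = 1.56e-04) and 1.69-fold in Tw2 (0.77, SE 0.19, adjusted p = 0.00444; 0.47 and not called with the GC and length trend removed). In GM Nid2 was 2.21-fold higher in Tw2 (1.12, SE 0.19, adjusted p = 7.97e-04), but 0.26 and not called with size factors. Of Nid2 exon bases, 8.45% are shared with Rtraf on the other strand, whose reads could be included.

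Frem2, a large basement membrane protein of epithelial and mesenchymal borders, was at 13.4 and 16.6 CPM in Pax7_GM, 1.48 and 1.15 in Tw2_GM, 22.1 and 19.8 in Pax7_48 and 11.9 and 12.3 in Tw2_48. The Tw2_GM libraries were the lowest, far under all others. The GM groups differed 11.4-fold (log2 difference -2.79, SE 0.15, adjusted p = 7.39e-06; -1.66 with a pseudocount of 5), and Frem2 rose 9.24-fold in Tw2 against 1.39-fold in Pax7, a difference of changes of 2.05 (SE 0.21, adjusted p = 6.95e-04). The Pax7 rise, 0.46 on the log2 scale (adjusted p = 0.0213), was not called with the GC and length trend removed (0.24).

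**Figure D4:**
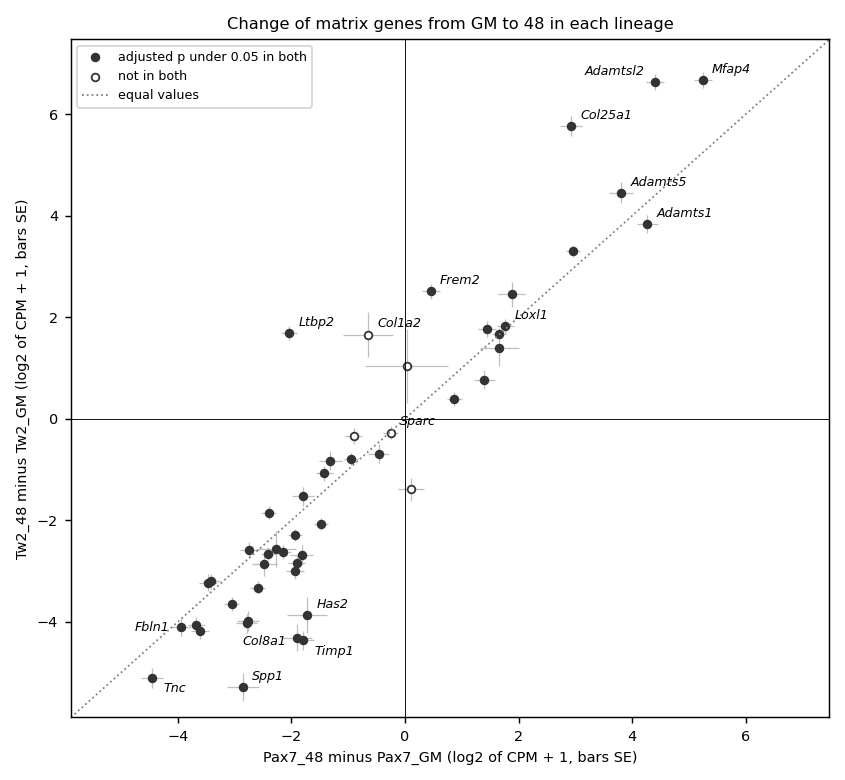
Log2 difference (CPM + 1) from GM to 48 in the Pax7 lineage (x axis) and the Tw2 lineage (y axis) for 50 of the 51 matrix genes, with limma SE bars; filled points are called in both. The points lie along the dotted line of equal values, and Ltbp2 (-2.04 and 1.69) stands apart at the upper left.

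Of the 10 elastic fibre and microfibril genes, 8 fell in Pax7 and 7 in Tw2, against 40.5% and 48.9% of all genes. The largest rise of any member in both lineages was that of Mfap4, a microfibril-associated glycoprotein that binds elastic fibres. It was at 2.30 and 1.54 CPM in Pax7_GM, 0.493 and 0.354 in Tw2_GM, 102 and 116 in Pax7_48 and 149 and 139 in Tw2_48. The Tw2_GM values rest on 6 and 4 reads. With all GM libraries under 10 CPM, Mfap4 is listed only through its libraries titled 48. The direction of its change was therefore set by the selection, and the p-values below are no independent test of it. Mfap4 rose 56.9-fold in Pax7 (log2 difference 5.25, SE 0.16, adjusted p = 1.98e-07) and 339.8-fold in Tw2 (6.67, SE 0.16, adjusted p = 1.45e-08, which the pseudocount of 1 makes smaller than the ratio of means). Fbln5, which organises elastic fibres, also rose, 3.00- and 4.02-fold.

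The other fibulins fell. Fbln1 was at 90.0 and 72.7 CPM in Pax7_GM, 34.4 and 33.3 in Tw2_GM, 4.42 and 4.19 in Pax7_48 and 0.728 and 1.38 in Tw2_48. It was lower in Tw2 in both cultures without overlap, by 2.40-fold in GM (log2 difference -1.23, SE 0.18, adjusted p = 4.43e-04) and 4.08-fold at 48 (-1.39, SE 0.18, adjusted p = 8.02e-04). The GM difference ran from -0.44 with the GC and length trend removed to -2.08 with size factors, and that at 48 was -0.62 with a pseudocount of 5. Fbln1 fell 18.9-fold in Pax7 (log2 difference -3.95, SE 0.18, adjusted p = 3.94e-07) and 32.1-fold in Tw2 (-4.10, SE 0.18, adjusted p = 1.63e-07; -2.68 with a pseudocount of 5). Fbln2 was at 162 and 151 CPM in Pax7_GM, 124 and 145 in Tw2_GM, 13.7 and 13.9 in Pax7_48 and 12.2 and 15.3 in Tw2_48. It fell 11.3- and 9.78-fold (log2 differences -3.41 and -3.20, adjusted p = 3.55e-07 and 2.43e-07), with the lineages overlapping at 48.

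Emilin1, an elastin-microfibril interface protein, was at 47.0 and 37.4 CPM in Pax7_GM, 5.42 and 6.91 in Tw2_GM, 16.0 and 16.6 in Pax7_48 and 3.71 and 2.45 in Tw2_48. Every Tw2 library was below every Pax7 library, 6.85-fold in GM (log2 difference -2.59, SE 0.20, adjusted p = 3.45e-05) and 5.29-fold at 48 (-2.10, SE 0.20, adjusted p = 2.15e-04). Ltbp1, which tethers latent TGF-beta to the matrix, was at 276 and 285 CPM in Pax7_GM, 588 and 603 in Tw2_GM, 51.3 and 53.2 in Pax7_48 and 180.2 and 151 in Tw2_48. It fell 5.36- and 3.60-fold, and at 48 it was 3.17-fold higher in Tw2 (log2 difference 1.64, SE 0.13, adjusted p = 1.33e-04; 0.99 with size factors). Fbn1 (fibrillin 1, the backbone of microfibrils) fell 3.90- and 7.38-fold; the gene model Gm9913 on the other strand shares 20.1% of its exon bases. Ltbp3 and Ltbp4 fell too, with log2 differences of -1.42 and -2.27 in Pax7 and -1.08 and -2.56 in Tw2.

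The 3 lysyl oxidases, which cross-link collagen and elastin, took 3 courses. Loxl3 was at 51.6 and 43.8 CPM in Pax7_GM, 41.6 and 43.6 in Tw2_GM, 3.29 and 3.54 in Pax7_48 and 3.13 and 4.26 in Tw2_48. It fell 14.0-fold in Pax7 (log2 difference -3.46, SE 0.16, adjusted p = 3.93e-07) and 11.5-fold in Tw2, and 11.6% of its exon bases are shared with Htra2 on the other strand. Loxl1 rose 3.45- and 3.61-fold (log2 differences 1.77 and 1.82). Lox was at 9.62 and 15.0 CPM in Pax7_GM, 33.6 and 45.8 in Tw2_GM, 14.3 and 11.9 in Pax7_48 and 14.1 and 14.7 in Tw2_48. It fell in Tw2 (-1.39, SE 0.23, adjusted p = 4.50e-04), and in Pax7 its cultures overlapped (0.11, adjusted p = 0.683). In GM it was 3.22-fold higher in Tw2 than in Pax7 (log2 difference 1.62, SE 0.23, adjusted p = 3.41e-04), or 0.79 with size factors and 0.76 with the GC and length trend removed.

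Has2, the main enzyme that makes hyaluronan in mesenchymal cells, had the largest positive lineage difference in GM. It was at 10.4 and 27.2 CPM in Pax7_GM, 124 and 137 in Tw2_GM, 4.89 and 4.06 in Pax7_48 and 7.50 and 8.62 in Tw2_48. The Pax7_GM libraries differed by 1.30 on the log2 scale but both lay well below those of Tw2_GM. Has2 was 6.94-fold higher in Tw2 in GM (log2 difference 2.87, SE 0.35, adjusted p = 2.09e-04; 1.61 with the GC and length trend removed), and fell 4.21-fold in Pax7 and 16.2-fold in Tw2. The difference of changes, -2.14 (adjusted p = 0.0223), was called only in the fits with all libraries or without 1 of the Pax7_GM libraries. Col4a3bp, the gene outside the matrix, was 4.54-fold higher in Tw2 in GM and 2.58-fold at 48, at 15.7 and 28.0 CPM in Pax7_GM, 103 and 95.2 in Tw2_GM, 45.3 and 39.4 in Pax7_48 and 114 and 104 in Tw2_48. With the GC and length trend removed these differences were 0.97 and 0.57, from 2.19 and 1.35.

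**Figure D5:**
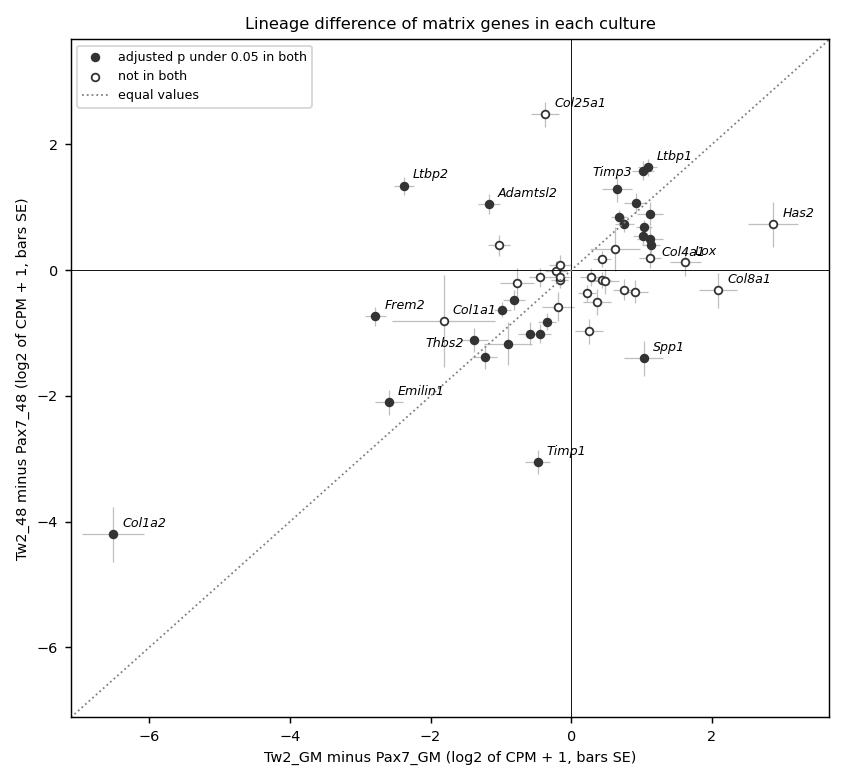
Log2 difference (CPM + 1) between Tw2 and Pax7 in GM (x axis) and at 48 (y axis) for 50 of the 51 matrix genes, with limma SE bars; filled points are called in both. Col1a2 lies apart at -6.51 and -4.21, Ltbp2 lies upper left, and Has2 and Col8a1 lie far right near 0 on the y axis.

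The secreted Adamts proteases and Adamtsl proteins, which share their ancillary domains without the protease, numbered 6, of which 4 rose and 2 fell in each lineage (all genes 38.8% and 40.5% in Pax7, 35.3% and 48.9% in Tw2). Each of the 6 was under 10 CPM in every library of 1 culture and is listed only through the other. The direction of each change was therefore set by the selection of the table, and the p-values are no independent test of it. Adamts1, which cuts the proteoglycans versican and aggrecan, was at 1.76 and 2.70 CPM in Pax7_GM, 1.31 and 0.974 in Tw2_GM, 57.2 and 64.0 in Pax7_48 and 31.7 and 27.6 in Tw2_48. It rose 27.2-fold in Pax7 (log2 difference 4.27, SE 0.18, adjusted p = 2.97e-07) and 25.9-fold in Tw2 (3.84, SE 0.18, adjusted p = 2.14e-07; 2.49 with a pseudocount of 5). Adamts5, also a versican and aggrecan protease, was at 2.57 and 4.24 CPM in Pax7_GM, 6.65 and 5.05 in Tw2_GM, 62.9 and 56.4 in Pax7_48 and 157 and 138 in Tw2_48. It rose 17.5-fold (log2 difference 3.81, SE 0.21, adjusted p = 9.09e-07) and 25.3-fold (4.45, SE 0.21, adjusted p = 2.20e-07). At 48 Adamts5 was 2.48-fold higher in Tw2 (1.29, SE 0.21, adjusted p = 0.0017; 0.64 with size factors and 0.46 with the GC and length trend removed), whereas Adamts1 was 2.04-fold lower.

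Adamtsl2, which binds Ltbp1 and fibrillin, was at 2.98 and 2.89 CPM in Pax7_GM, 0.986 and 0.531 in Tw2_GM, 79.2 and 85.8 in Pax7_48 and 180.1 and 165 in Tw2_48. The Tw2_GM values rest on 12 and 6 reads. It rose 28.1-fold in Pax7 (log2 difference 4.41, SE 0.16, adjusted p = 2.10e-07) and 227-fold in Tw2 (6.64, SE 0.16, adjusted p = 1.45e-08), with a difference of changes of 2.23 (SE 0.22, adjusted p = 5.46e-04). Adamtsl5 was at 7.32 and 6.56 CPM in Pax7_GM, 3.04 and 3.01 in Tw2_GM, 61.0 and 60.4 in Pax7_48 and 39.5 and 38.3 in Tw2_48. It rose 8.74-fold in Pax7 (log2 difference 2.96, SE 0.12, adjusted p = 2.77e-07) and 12.9-fold in Tw2. Adamts10 and Adamtsl3 fell, with log2 differences of -2.47 and -2.78 in Pax7 and -2.86 and -4.02 in Tw2.

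Mmp14, the membrane protease that cuts fibrillar collagen and activates Mmp2, fell 5.45- and 6.45-fold, and Mmp2, a gelatinase, fell 3.92- and 7.56-fold. Mmp15, another membrane-bound member, rose in Pax7 (0.86, SE 0.13, adjusted p = 3.58e-04) and by 0.39 in Tw2 (adjusted p = 0.0219; -0.02 with the GC and length trend removed). In GM the Tw2 minus Pax7 difference of Mmp14 was called in opposite directions, 0.43 as deposited and -0.44 with size factors. Timp3, the Timp that binds to the matrix and also inhibits Adamts proteases, was at 12.3 and 13.1 CPM in Pax7_GM, 24.3 and 29.6 in Tw2_GM, 6.95 and 5.76 in Pax7_48 and 22.4 and 19.6 in Tw2_48. It fell 2.00-fold in Pax7 (log2 difference -0.90, SE 0.16, adjusted p = 7.20e-04), and in Tw2 its culture difference was -0.34 (adjusted p = 0.0691). At 48 it was 3.30-fold higher in Tw2 than in Pax7 (log2 difference 1.58, SE 0.16, adjusted p = 2.67e-04; 0.99 with size factors), the opposite of Timp1. Of Timp3 exon bases, 21.3% are shared with Syn3 on the other strand.

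Over both cultures, 12 members were higher in Tw2 than in Pax7 each time and 12 lower each time, against 37.0% and 14.7% of all genes, with the values as deposited. The 12 lower were Adamts1, Adamtsl5, Col18a1, Col19a1, Col1a2, Emilin1, Fbln1, Frem2, Ltbp3, Mmp15, Thbs2 and Timp1. Of the 12 higher, Col4a3bp was called in both cultures under each of the 4 treatments of the values, and of the 12 lower Col19a1, Col1a2, Emilin1, Fbln1, Frem2 and Thbs2 were. In GM, Adamts5 of the 12 higher and Timp1 of the 12 lower were called in the opposite direction under at least 1 treatment. Some of these calls were lost in fits without a library. In GM, Mmp15 was called in 1 of the 8 such fits, Col18a1, Col19a1 and Timp1 in 2, Adamts5 in 6 and Adamts1 in 7. At 48, Col4a1, Ltbp3 and Nid2 were called in 4 of the 8, Col19a1 in 5 and Col4a2 in 6. Between the cultures, Adamtsl2, Ltbp2 and Spp1 were called in opposite directions with the values as deposited. Across the 52 genes the 2 lineage differences had a Pearson correlation of 0.58, against 0.78 across all genes, as a description in which genes are not independent and share libraries within a culture. For the culture change, 15 members rose and 30 fell in both lineages, against 33.2% and 39.4% of all genes, and the correlation was 0.93, against 0.95 across all genes.

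Other matrix genes, from 3 lists, moved mostly the same way. Of 39 further glycoproteins and cross-linkers 15 were analysed, of which 12 fell and 2 rose in Pax7, and 13 fell and 1 rose in Tw2, with median log2 differences of -2.22 and -2.76 where all genes stood at 0.01 and -0.49. Cthrc1, a secreted collagen triple helix repeat protein, had log2 differences of -4.50 in Pax7 and -5.82 in Tw2. Of 20 proteoglycans 12 were analysed, with 9 lower and 3 higher in each lineage and medians of -1.75 and -2.45. Vcan (versican), the substrate of Adamts1 and Adamts5, had log2 differences of -2.54 in Pax7 and -3.02 in Tw2, and Ogn (osteoglycin) had 3.37 and 5.09. Of 20 genes of collagen maturation 7 were analysed, 5 of which fell in each lineage, with medians of -1.68 and -1.81. Lower genes made up 40.5% of all genes in Pax7 and 48.9% in Tw2. Pcolce2, an enhancer of procollagen cleavage, had log2 differences of -4.30 and -5.57 (adjusted p = 7.14e-07 and 9.56e-08).

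Markers of other cells moved with these results as follows, and their part in the matrix values was not tested. All 10 fusing myocyte markers were higher at 48 in both lineages, from 1739 to 2027 CPM in sum in Pax7_GM to 23160 and 24470 CPM in Pax7_48, and from 319 to 393 CPM in Tw2_GM to 23118 and 22658 CPM in Tw2_48, and 9 of the 10 were lower in Tw2_GM than in Pax7_GM. Of 7 tenocyte markers 3 were analysed (Scx, Egr1 and the member Tnc), of which 1 rose and 2 fell in each lineage. Scx was at 110.1 and 91.4 CPM in Pax7_GM, 27.5 and 32.1 in Tw2_GM, 348 and 319.6 in Pax7_48 and 219 and 259 in Tw2_48, while Egr1 had culture differences of -0.94 in Pax7 and -1.37 in Tw2. Of 10 pericyte and smooth muscle markers 7 were analysed, of which 3 rose and 3 fell in Pax7 and 4 rose and 2 fell in Tw2. Their sum, mostly Acta2 and Des, was 1658 to 2360 CPM in GM and 9978 to 12317 CPM at 48. The pericyte markers went both ways. Rgs5 and Cspg4 fell in both lineages, and Rgs5 was at 0 in both Pax7_48 libraries. Abcc9 rose, with log2 differences of 4.24 in Pax7 and 5.26 in Tw2, from under 10 CPM in every GM library. Of the immune list 1 of 10 was analysed, Itgam, at 0 in both Tw2_GM libraries and 11.9 to 22.8 CPM at 48. Of 12 satellite cell markers 9 were analysed, of which 5 fell and 3 rose in Pax7 and 4 fell and 3 rose in Tw2. Their sum was 2028 to 2230 CPM in GM and 2748 to 3916 CPM at 48, with Itga7 and Cdh15 among those that rose and Pax7 and Vcam1 among those that fell. Of 7 glial markers 1 was analysed, Ncam1, which muscle cells also express, and none of 8 endothelial markers was.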

How the data were processed

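RNA-seq was done on 8 libraries, 2 in each of 4 groups taken from the sample titles. Per the submitters' processing notes, TopHat2 2.0.0, DESeq2 1.6.3 and GRCm38/mm10 were used. The counter and annotation are not given in the sources used here. The labels call every culture twist2+ in the growth text and freshly sorted in the extraction text, which goes against the sources and titles.

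The authors deposited a table of 5457 genes with mean CPM by group and, against Tw2_GM, log2 fold changes that equal log2((mean + 1)/(Tw2_GM mean + 1)). At 10 or more CPM, every solved gene stands in at least 4 of the 8 libraries. Each mean, given to 12 significant digits, was split into the whole read numbers of 2 libraries, which was done for 5452 genes in every group. Tested on simulated means, between 5453 and 5457 of 5457 genes per group had a single solution, and all of these were right. The means carry no replicate numbers, so libraries are named by depth.

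Single-library values were compared with limma 3.58.1 (R 4.3.3) on log2(CPM + 1), which understates changes of low genes, in 1 fit of the 4 groups (residual degrees of freedom 4, moderated). P-values were adjusted by Benjamini-Hochberg over all 5452 genes, and adjusted p under 0.05 is a call. Fold values are ratios of mean CPM. The difference of changes is the Tw2 change minus the Pax7 change. Implied library sizes were 5.18 to 13.7 M reads, of which listed genes held 44.4% to 73.5%.

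Alternatives were a pseudocount of 5, a mean of at least 10 CPM, size factors from recovered reads of listed genes, quantile normalization, removal of a trend with GC content and length (GENCODE M21, splines with 4 degrees of freedom), a fit on the compared groups alone, and leaving out each library. Values in every library are given for the 6 members highest and the 6 lowest in each of the first 4 comparisons, among called members without overlap, and for the 4 with the largest difference of changes. Other members are named by role. The values of 1 member and 1 other matrix gene are not reported here; both stay in the counts. Members and lists were chosen with earlier results of these data known.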

Additional observations from a re-analysis of the deposited data

Results flagged for a closer look

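For 17 members the change from GM to 48 differed between the lineages, as the Tw2 change minus the Pax7 change on the log2 scale (limma, adjusted p under 0.05). It was more positive in Tw2 for 7 members, among them Ltbp2 (3.73), Col25a1 (2.85), Col1a2 (2.31), Adamtsl2 (2.23), Frem2 (2.05) and Mfap4 (1.42). It was more negative for Timp1 (-2.57), Spp1 (-2.43), Col8a1 (-2.41), Has2 (-2.14), Lox (-1.49), Adamtsl3 (-1.24), Thbs1 (-1.22), Col5a2 (-1.06), Fbn1 (-0.92) and Col4a1 (-0.73). Of these, 9 were called in each of the 8 fits without a library, among them Adamtsl2, Col25a1, Col8a1, Frem2, Ltbp2, Mfap4, Spp1 and Timp1. Adamtsl3, Col1a2, Col4a1, Col5a2, Fbn1, Has2, Lox and Thbs1 were not.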

How the results depend on the processing

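Counts of called members in the lineage comparisons moved with scaling, and those of the difference of changes with scaling and with single libraries. With size factors, members higher in Tw2 than Pax7 numbered 4 in GM and 9 at 48, and members lower 30 and 30. With the GC and length trend removed, 11 members were lower in Tw2_GM and 19 had a more negative change in Tw2. Leaving out 1 library at a time gave 19 to 23 higher and 12 to 18 lower in GM, 13 to 18 higher and 12 to 18 lower at 48, 15 to 16 higher and 31 to 32 lower for the Pax7 culture change, 16 to 17 higher and 30 to 33 lower for the Tw2 culture change, and 6 to 12 more positive and 3 to 17 more negative for the difference of changes. A lone library left in a group was taken to vary like the others. Of 52 named gene results, 49 kept direction and call under each alternative run, and no named result changed direction. The named results were picked for the largest differences among called members, which favours such stability. Among all 52 members, 11 had a GM lineage difference called in both directions over the 4 treatments of the values (1528 of 5431 among all genes). They were Adamts10, Adamts5, Fbln2, Fn1, Lamb1, Lamb2, Loxl1, Loxl3, Mmp14, Nid1 and Timp1. At 48 there were 2, Loxl1 and Mmp14 (615 of 5431). Calls were lost for Col4a1 and Nid2 in GM with size factors (both 0.26) and for Col19a1 at 48 (-1.06, -1.28 and -0.98 without a library). The cause was not tested. No paired analysis was possible because the deposited means carry no replicate numbers. A count test on the recovered reads (edgeR) was not run. Low genes are limited by depth: Mfap4 in Tw2_GM rests on 6 and 4 reads.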

Other observations

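Ratios between 2 matrix genes within a library also differed by group, and are given as values chosen after they were seen. Col5a2 over Col5a1, 2 chains of type V collagen, was 3.47 and 3.85 in Pax7_GM, 3.75 and 3.89 in Tw2_GM, 2.22 and 1.52 in Pax7_48, and 0.837 and 0.808 in Tw2_48, as a ratio of CPM. Mmp14 over Timp1, a ratio of mRNA levels that does not measure inhibition of Mmp14, was 0.341 and 0.453 in Pax7_GM, 0.792 and 0.695 in Tw2_GM, 0.257 and 0.246 in Pax7_48, and 2.99 and 2.12 in Tw2_48. Both ratios separated Tw2_48 from the other 3 groups without overlap, and neither was tested.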
